A study of Homo sapiens with 6 samples.

Results

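The genes described here are 10 markers by which epithelial and mesenchymal identity is commonly read: CDH1, EPCAM, KRT8, KRT18 and KRT19 on the epithelial side, CDH2, VIM, ZEB1 and SNAI2 on the mesenchymal side, and CTNNB1, which was counted with neither. They were chosen by name. Of the 10, 6 had a row among the 10542 genes of the deposited expression table, namely KRT8, KRT18, KRT19, CTNNB1, VIM and ZEB1, that is 3 of 5 epithelial and 2 of 4 mesenchymal markers. CDH1, EPCAM, CDH2 and SNAI2 were not analysed here, so neither the cadherin pair nor the EpCAM level could be compared. Poly(A) RNA of DU145, a human prostate carcinoma line that grows without androgen, was sequenced in 3 libraries of cells carrying a TFEB-overexpressing lentivirus (DU145-TFEB) and 3 of cells carrying the blank vector lentivirus (DU145-vector). TFEB is a transcription factor known for activating lysosomal and autophagy genes, and the comparison asks which transcripts differ when it is overexpressed. Both groups carried a lentivirus and were selected with puromycin, and the labels name no promoter and no clone. The labels do not say whether the libraries of a group came from separate cultures, so the p-values measure the spread between these libraries, which may be technical.

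Epithelial cells hold to one another through E-cadherin (CDH1), whose tail is tied to the actin cytoskeleton by beta-catenin (CTNNB1) and alpha-catenin, and their cytoplasm is spanned by keratin filaments, in simple epithelia mainly of keratin 8 (KRT8) paired with keratin 18 (KRT18). In the epithelial-mesenchymal transition (EMT), transcription factors of the ZEB, SNAI and TWIST families repress epithelial genes by binding E-box motifs in their promoters, and vimentin (VIM) filaments and N-cadherin (CDH2) become prominent. Carcinoma lines such as DU145 commonly express keratins and vimentin together.

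RefSeq promoter windows (GRCh38.p14) covered 250 bases before to 50 after a transcript start. They were at hand for KRT8, CTNNB1 and VIM, with 1 window each, and for ZEB1, with 7. Windows of both mesenchymal genes are shown, which, like KRT8 and CTNNB1, were lower in every DU145-TFEB library. Capitals mark CAGGTG, the E-box form bound by ZEB and SNAI factors, searched on both strands (CAGGTG or CACCTG).
ZEB1, chr10:31318167-31318466, plus strand: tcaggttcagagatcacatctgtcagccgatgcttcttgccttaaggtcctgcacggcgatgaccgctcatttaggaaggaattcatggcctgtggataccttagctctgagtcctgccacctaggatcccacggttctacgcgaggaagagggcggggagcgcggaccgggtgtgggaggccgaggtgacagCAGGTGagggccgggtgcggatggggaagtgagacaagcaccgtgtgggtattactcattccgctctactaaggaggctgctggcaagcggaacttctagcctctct
VIM, chr10:17227991-17228290, plus strand: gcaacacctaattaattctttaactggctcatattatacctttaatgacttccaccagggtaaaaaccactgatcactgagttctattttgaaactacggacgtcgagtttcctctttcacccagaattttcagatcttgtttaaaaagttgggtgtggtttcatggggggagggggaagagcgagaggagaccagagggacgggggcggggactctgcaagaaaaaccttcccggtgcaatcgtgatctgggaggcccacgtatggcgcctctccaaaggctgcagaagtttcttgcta
The motif stood in 2 of the 7 ZEB1 windows, among them the one shown, and in none of the VIM, KRT8 and CTNNB1 windows, against 20.6% of all 35116 promoter windows of the same length. CACGTG, the palindromic E-box form read by TFEB and its relatives, stood in none of these windows, against 7.26% of all windows. No match says only that these letters are not in these windows.

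The values are normalized read counts, that is, whole reads divided by one size factor per library. Reads on the listed genes came to 13999961, 16511477 and 14146832 for DU145-TFEB and to 14776019, 14603929 and 14217130 for DU145-vector, so the libraries were of similar depth. The table held only genes whose deposited adjusted p-value was below 0.05, so each gene below had already been selected for a difference between these libraries, and its adjusted p-value is not independent evidence. Fold changes are differences in log2(normalized count + 1), given with their standard error (SE), and adjusted p-values are those of limma with Benjamini-Hochberg adjustment over all listed genes. Genes past both cutoffs, 0.05 for the adjusted p-value and 1.5 for the size of the log2 fold change, are called differentially expressed (DEGs). TFEB itself read 6325, 6301 and 6036 normalized counts in DU145-TFEB and 127.4, 123.9 and 125 in DU145-vector. Its fold change was 5.62 ± 0.075 on the log2 scale (SE, n = 3 per group), and the libraries matched their labels.

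All 6 measured identity genes, epithelial and mesenchymal alike, were lower in DU145-TFEB. Their levels in DU145-TFEB ranged from 38.1% of DU145-vector for ZEB1 to 78.8% for CTNNB1. Of all listed genes, 52.4% were lower and 47.6% higher at an adjusted p-value below 0.05, and 100% passed in one direction or the other, so passing the test does not set these genes apart. None of the 6 was a DEG, while 19.1% of the listed genes were (16.5% of the listed genes as lower and 2.54% as higher DEGs). The median log2 fold change of all listed genes was -0.36, and KRT8, KRT18, VIM and ZEB1 lay further below 0 than that, while KRT19 and CTNNB1 lay close to it. In bulk RNA, fewer cells that express a gene and less RNA per cell cannot be told apart.

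**Figure D1:**
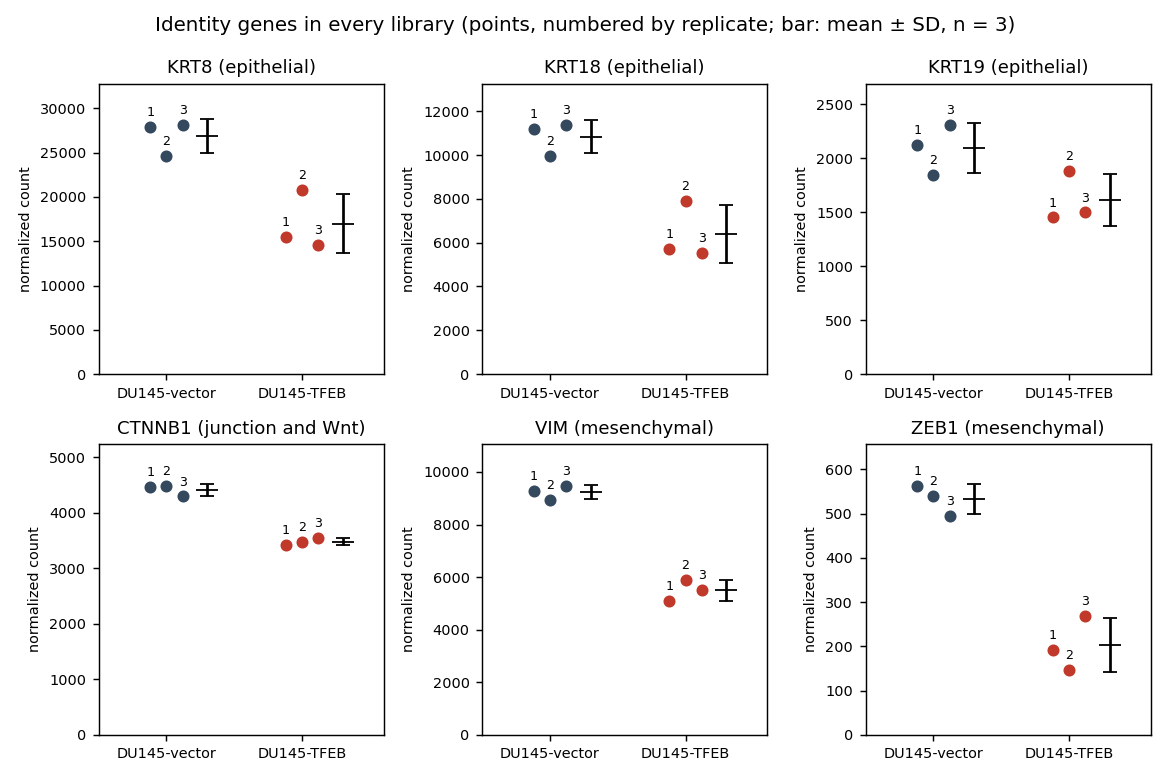
Normalized counts (reads divided by the library's size factor; linear axis from 0, a panel for each gene) of the 6 identity genes in each library, with points for the 3 DU145-TFEB and the 3 DU145-vector libraries, numbered by replicate, and bars for the group means ± SD (n = 3). The groups are apart for every gene except KRT19, where DU145-TFEB replicate 2 (1884) lies above DU145-vector replicate 2 (1846).

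KRT8 (ENSG00000170421, chr12:52897187-52949954, minus strand) encodes the type II keratin of simple epithelia. It read 15510, 20808 and 14615 normalized counts in DU145-TFEB and 27882, 24614 and 28109 in DU145-vector. All 3 DU145-TFEB libraries lay below all 3 DU145-vector libraries, with DU145-TFEB replicate 2 the nearest to them. KRT8 was thus down-regulated from 26868 ± 1956 to 16978 ± 3348 normalized counts (SD, n = 3), a log2 fold change of -0.68 ± 0.126 (SE; 95% confidence interval -0.96 to -0.39; limma adjusted p = 0.000663).

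KRT18 (ENSG00000111057, chr12:52948871-52952901, plus strand) encodes the type I partner with which keratin 8 polymerizes. It read 5724, 7913 and 5517 normalized counts in DU145-TFEB and 11200, 9961 and 11366 in DU145-vector. The groups did not overlap, and the same 2 libraries, DU145-TFEB replicate 2 and DU145-vector replicate 2, stood nearest to the other group. KRT18 fell to 58.9% of DU145-vector, with a log2 fold change of -0.78 ± 0.129 (SE; 95% confidence interval -1.07 to -0.49; limma adjusted p = 0.000328). The 2 genes lie side by side on opposite strands, and their annotated exons share 525 bases, 7.63% of the exon bases of KRT8 and 16.3% of those of KRT18. How the authors' counting treated strand is not given in the sources used here, so reads from the shared bases could not be assigned. GENCODE 29 also holds 50 KRT8 and 67 KRT18 pseudogenes, of which 1, KRT18P59, had a row. KRT18P59 read 7.37, 4.55 and 11.4 normalized counts in DU145-TFEB and 22.5, 24.4 and 21 in DU145-vector, far under KRT18 itself in every library. Reads shared between the keratins and their processed copies remain uncertain.

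The KRT8 to KRT18 ratio of normalized counts, which does not depend on the scaling between libraries, was 2.71, 2.63 and 2.65 in DU145-TFEB and 2.49, 2.47 and 2.47 in DU145-vector. KRT8 and KRT18 thus stayed within a narrow ratio to one another while both fell, with KRT18 a little lower relative to KRT8 in all 3 DU145-TFEB libraries. The difference in the log2 ratio was 0.10 (exact two-sided permutation test, p = 0.1, the smallest p that 3 against 3 libraries allow).

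KRT19 (ENSG00000171345, chr17:41523617-41528308, minus strand) encodes a small type I keratin of simple epithelia that also pairs with keratin 8. It read 1451, 1884 and 1496 normalized counts in DU145-TFEB and 2119, 1846 and 2305 in DU145-vector. Here the groups overlapped, since DU145-TFEB replicate 2 lay above DU145-vector replicate 2, whereas the groups did not overlap in 99.3% of the listed genes. The log2 fold change of -0.38 ± 0.118 (SE, n = 3) had a limma adjusted p of 0.0107, and the exact permutation test on the log values gave p = 0.2. The call did not hold in every setting: without DU145-TFEB replicate 1 the log2 fold change was -0.31 with an adjusted p of 0.0524, and with DESeq2 size factors it was -0.14 with an adjusted p of 0.299. The KRT19 to KRT8 log2 ratio, chosen after seeing the data, was higher in every DU145-TFEB library than in any DU145-vector library. The mean difference was 0.30 (exact permutation p = 0.1).

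**Figure D2:**
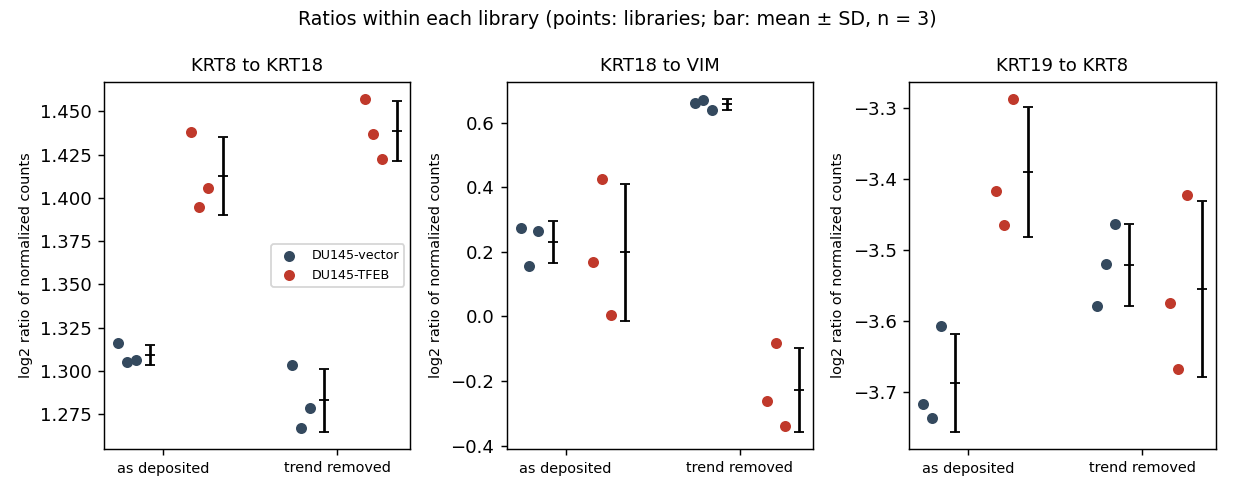
Within-library log2 ratios of normalized counts for KRT8 to KRT18, KRT18 to VIM and KRT19 to KRT8, as deposited and with the GC and length trend removed, with a point for each library and bars for the group means ± SD (n = 3). As deposited, the groups are apart for KRT8 to KRT18 and KRT19 to KRT8 and overlap for KRT18 to VIM, and with the trend removed they are apart for KRT18 to VIM and overlap for KRT19 to KRT8.

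VIM (ENSG00000026025, chr10:17228259-17237593, plus strand) encodes vimentin, the intermediate filament protein of mesenchymal cells. It read 5098, 5895 and 5501 normalized counts in DU145-TFEB and 9273, 8950 and 9470 in DU145-vector. The libraries of each group lay close together and the groups were far apart. VIM fell to 59.6% of DU145-vector, from 9231 ± 262 to 5498 ± 399 normalized counts (SD, n = 3), with a log2 fold change of -0.75 ± 0.072 (SE; 95% confidence interval -0.91 to -0.59; limma adjusted p = 1.3e-05). Antisense genes without a row, VIM-AS1 and AL133415.1, share 641 and 619 exon bases with VIM. KRT18 and VIM fell to 58.9% and 59.6% of DU145-vector, and the KRT18 to VIM ratio of normalized counts was 1.12, 1.34 and 1.00 in DU145-TFEB and 1.21, 1.11 and 1.20 in DU145-vector. The groups overlapped, and the log2 ratio differed by -0.031 (exact permutation p = 1).

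ZEB1 (ENSG00000148516, chr10:31318495-31529814, plus strand) encodes a zinc-finger repressor of epithelial genes. It read 191.5, 147.4 and 268.9 normalized counts in DU145-TFEB and 562.6, 539.3 and 495 in DU145-vector. Every DU145-TFEB library lay far below every DU145-vector library, although the DU145-TFEB libraries spread more among themselves. ZEB1 fell to 38.1% of DU145-vector, the deepest fall of the 6 under the authors' scaling, though not with quantile normalization (KRT8 at -1.04, ZEB1 at -0.97) or with the GC and length trend removed. Under the authors' scaling its log2 fold change was -1.43 ± 0.193 (SE; 95% confidence interval -1.87 to -0.995; limma adjusted p = 9.6e-05). This did not reach the fold-change cutoff, but without DU145-TFEB replicate 3 its log2 fold change was -1.66, past the cutoff. ZEB1-AS1, the antisense gene that starts beside it and shares 366 exon bases with it (4.23% of those of ZEB1), had 107.3, 82.8 and 143.3 normalized counts in DU145-TFEB and 59.8, 81.0 and 78 in DU145-vector. Its log2 fold change was 0.58 ± 0.225 (limma adjusted p = 0.0297), in the direction opposite to ZEB1, and reads of the shared bases could not be assigned to either.

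CTNNB1 (ENSG00000168036, chr3:41194741-41260096, plus strand) encodes beta-catenin, which links cadherins to actin and carries the canonical Wnt signal to the nucleus. It read 3420, 3472 and 3553 normalized counts in DU145-TFEB and 4472, 4488 and 4297 in DU145-vector. The groups did not overlap and the libraries of each lay close together. CTNNB1 fell to 78.8% of DU145-vector, with a log2 fold change of -0.34 ± 0.061 (SE; 95% confidence interval -0.48 to -0.21; limma adjusted p = 0.000535). This is about the median of all listed genes, and with DESeq2 size factors the log2 fold change was -0.10 (adjusted p = 0.163).

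**Figure D3:**
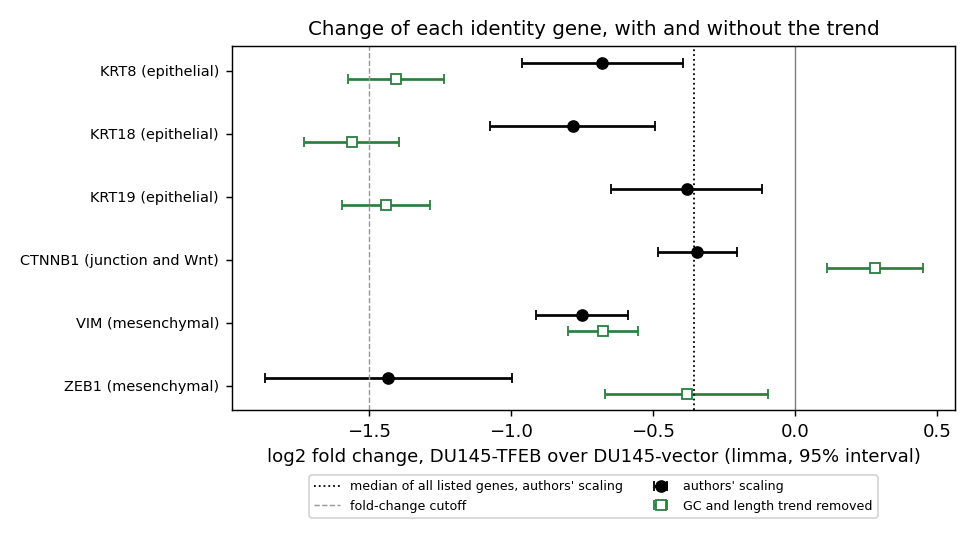
Log2 fold change (DU145-TFEB over DU145-vector) of the 6 identity genes with 95% confidence intervals, for the authors' scaling and with the GC and length trend removed. With the authors' scaling all 6 lie below 0, and with the trend removed the keratins lie lower (KRT18 at -1.56), ZEB1 lies nearer to 0 (-0.38) and CTNNB1 lies above 0 (0.28).

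Per kilobase of the authors' gene length, the levels of normalized counts in DU145-vector ran from KRT8 (3905 ± 284; SD, n = 3) over KRT18 (3369 ± 239), VIM (1790 ± 50.9), KRT19 (895 ± 98.8) and CTNNB1 (370.5 ± 8.89) to ZEB1 (61.5 ± 3.97), and no neighbours in this order overlapped. In DU145-TFEB the order was the same, with KRT8 at 2467 ± 486, KRT18 at 1984 ± 413, VIM at 1066 ± 77.3, KRT19 at 689 ± 102, CTNNB1 at 292 ± 5.64 and ZEB1 at 23.4 ± 7.11. Only KRT8 and KRT18 overlapped there. Both keratins of the simple epithelial pair were thus more abundant per length than vimentin in both groups, and the ZEB1 transcript was the scarcest of the 6 in both.

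The libraries also differed in how reads were spread over genes of low and high GC content, and this moved with the groups. The median centred log2 level of high-GC genes (the quintile at or above 58.5%) minus that of low-GC genes (the quintile at or below 40.2%) was 0.97, 1.31 and 0.69 in DU145-TFEB and -0.90, -1.26 and -0.86 in DU145-vector. The median log2 fold change was 0.66 in high-GC genes and -1.38 in low-GC genes. The identity genes span this range: the longest transcripts of ZEB1, CTNNB1 and VIM have a GC content of 38.5%, 43.5% and 46.9%, and those of KRT18, KRT8 and KRT19 of 55.7%, 56.2% and 61.8%. ZEB1 lay among genes nearly all of which were lower, since 98.0% of the 1272 genes with a GC content up to that of ZEB1 were lower in DU145-TFEB. The keratins did not follow the genes of their own composition, of which only 3.34% were lower (106 of 3175 with a GC content of at least 55%, a bound set after their values were seen).

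After removal from each library of the trend against GC content and length, all 6 genes still passed the test, as did 69.4% of all genes tested, and 5 of the 6 were lower, as were 53.7%. The keratin falls became larger and tighter. The log2 fold changes were then -1.40 ± 0.076 for KRT8, -1.56 ± 0.077 for KRT18 and -1.44 ± 0.071 for KRT19 (SE; limma adjusted p = 1.6e-07, 1.1e-07 and 1.1e-07), and KRT18 passed the cutoff for lower DEGs, as did 4.26% of all genes tested. VIM was little changed at -0.68 ± 0.057 (adjusted p = 2.0e-06). ZEB1 was at -0.38 ± 0.131 (adjusted p = 0.0218), close to the median of -0.30 over all genes, and CTNNB1 turned to 0.28 ± 0.077 (adjusted p = 0.00682). The KRT18 to VIM ratio, which overlapped between the groups as deposited, was then 0.83, 0.94 and 0.79 in DU145-TFEB and 1.58, 1.59 and 1.56 in DU145-vector (exact permutation p = 0.1). This ratio with the trend removed was chosen after seeing the data. What gave the libraries their GC difference was not tested.

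**Figure D4:**
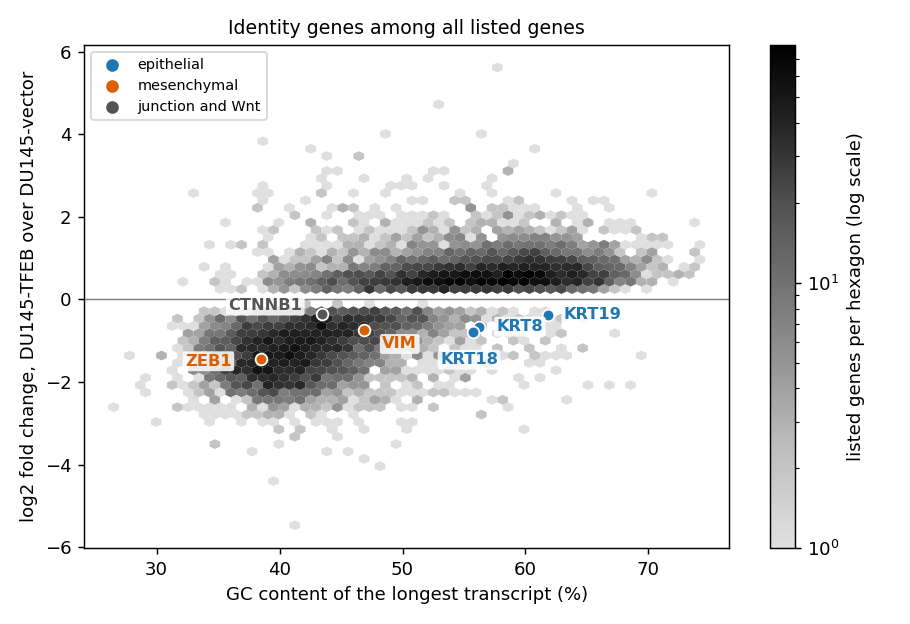
Log2 fold change of each listed gene against the GC content of its longest transcript, as hexagons shaded by the number of genes (log scale), with the 6 identity genes as points. ZEB1 (38.5%) and CTNNB1 (43.5%) lie among genes of low GC content that were mostly lower, VIM lies below 0 at a middling GC content (46.9%), and KRT8, KRT18 and KRT19 lie below 0 where 3.34% of genes with a GC content of at least 55% do.

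Around these genes, the wider set of adherens junction genes moved both ways. Of 18 listed by name, 12 had a row, of which 5 were higher and 7 lower, beside 47.6% and 52.4% of all listed genes. The median log2 fold change was -0.44 beside -0.36 over all listed genes. ARVCF, a catenin of the p120 family, rose from 389 ± 24.3 to 810 ± 63.2 normalized counts (log2 fold change 1.05), and JUP, plakoglobin, rose by 0.53. VEZT, vezatin, fell from 1550 ± 215 to 390 ± 74.3 (log2 fold change -1.99), and LIMA1, an actin-binding partner of the cadherin-catenin complex, fell from 7076 ± 92.2 to 1878 ± 272 (-1.92). CDH24, a classical-type cadherin, was at 0.73 and NECTIN3, an adhesion receptor, at -1.55, while CTNNA2, the neuronal alpha-catenin, had 2.1, 0 and 1.04 normalized counts in DU145-TFEB and 30.4, 24.4 and 21 in DU145-vector. After removal of the trend 10 of the 12 were lower and none higher, beside 53.7% lower (5659) and 1649 higher of all 10537 genes tested. Among the lower were VEZT at -0.89, LIMA1 at -1.08 and NECTIN3 at -0.62. JUP (-0.47) and CDH24 (-0.36) were then lower in place of higher, and ARVCF was at -0.04 and did not pass.

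Of 13 desmosomal genes 6 had a row, and 5 of these were lower, beside 52.4% of all listed genes. With the trend removed 4 were lower and 2 did not pass, beside 53.7% lower of all genes tested. The median log2 fold change of the desmosomal genes was -1.27, and -0.46 with the trend removed, beside -0.36 and -0.30 over all genes. DSP, desmoplakin, which anchors keratin filaments to the desmosome, fell from 940 ± 114 to 313 ± 42.9 normalized counts (log2 fold change -1.59; adjusted p = 6.6e-06). The desmosomal cadherins DSG2 and DSC3 fell by 1.52 each on the log2 scale, DSG2 from 4683 ± 252 to 1642 ± 237 and DSC3 from 2346 ± 202 to 824 ± 158. PPL, periplakin, which also binds keratin filaments, rose from 500 ± 38.3 to 1029 ± 73.8 (log2 fold change 1.04). On removal of the trend DSP was at -1.33, DSG2 shrank to -0.85 and DSC3 to -0.63, none past the fold-change cutoff, and PPL at 0.15 did not pass.

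Of 36 tight junction and polarity genes 25 had a row, 15 higher and 10 lower, beside 47.6% and 52.4% of all listed genes. The 6 DEGs among them were all lower, as were 86.7% of all 2009 DEGs: MPP5 (also called PALS1), a scaffold of the Crumbs polarity complex, at -2.35, the polarity kinase PRKCI at -1.84, TJP1 (ZO-1) at -1.83, PARD6B at -1.59, and DLG1 and CLDN1 at -1.57 each. TJP1 fell from 4165 ± 106 to 1174 ± 155 normalized counts and MPP5 from 4891 ± 372 to 968 ± 188. TJP3 (ZO-3) at 1.25, MARVELD1 at 0.87 and CLDN4, claudin 4, at 0.78 were higher. The list's median of 0.29 became -0.56 with the trend removed, when 19 of the 25 were lower and 1 higher, beside 53.7% lower of all genes tested, with MPP5 at -1.41, TJP1 at -1.30, CLDN1 at -1.02, PRKCI at -0.94, PARD6B at -0.84 and DLG1 at -0.56. TJP3 (0.20), MARVELD1 (-0.12) and CLDN4 (-0.07) then did not pass.

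Under the authors' scaling, other keratins with a row did not follow KRT8, KRT18 and KRT19. Of 41 further names on the keratin list 4 had a row, 3 keratins and KRTCAP2, which despite its name is a subunit of the oligosaccharyltransferase. All 4 were higher, as were 47.6% of all listed genes. With the trend removed 2 of the 4, KRT86 and KRTCAP2, were higher, 1 was lower and 1 did not pass. Of all 10537 genes tested, 1649 were then higher and 5659 lower. KRT80 rose from 5992 ± 278 to 8407 ± 846 normalized counts (log2 fold change 0.48), and KRT10, a keratin of differentiated epidermis, was at 0.43. KRT86, a hair keratin with near-identical copies among which reads may be split, was at 1.73, with 128, 102 and 103 normalized counts in DU145-TFEB and 34.3, 31.2 and 32 in DU145-vector. Without the trend KRT80 was lower, at -0.33, KRT10 at -0.13 did not pass and KRT86 was at 0.69.

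Of 35 epithelial regulators and surface genes 9 had a row, 2 higher and 7 lower, beside 47.6% and 52.4% of all listed genes. With the trend removed 5 were lower, none higher and 4 did not pass, beside 53.7% lower of all genes tested. KLF5, a transcription factor of proliferating epithelia, fell from 675 ± 78.8 to 294 ± 7.15 normalized counts (log2 fold change -1.19), and fell by 1.20 with the trend removed. GRHL1, a grainyhead-like factor, was at -1.04, and ELF3, an epithelium-specific ETS factor, at 0.37, but without the trend GRHL1 at -0.31 did not pass and ELF3 was lower, at -0.33.

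**Figure D5:**
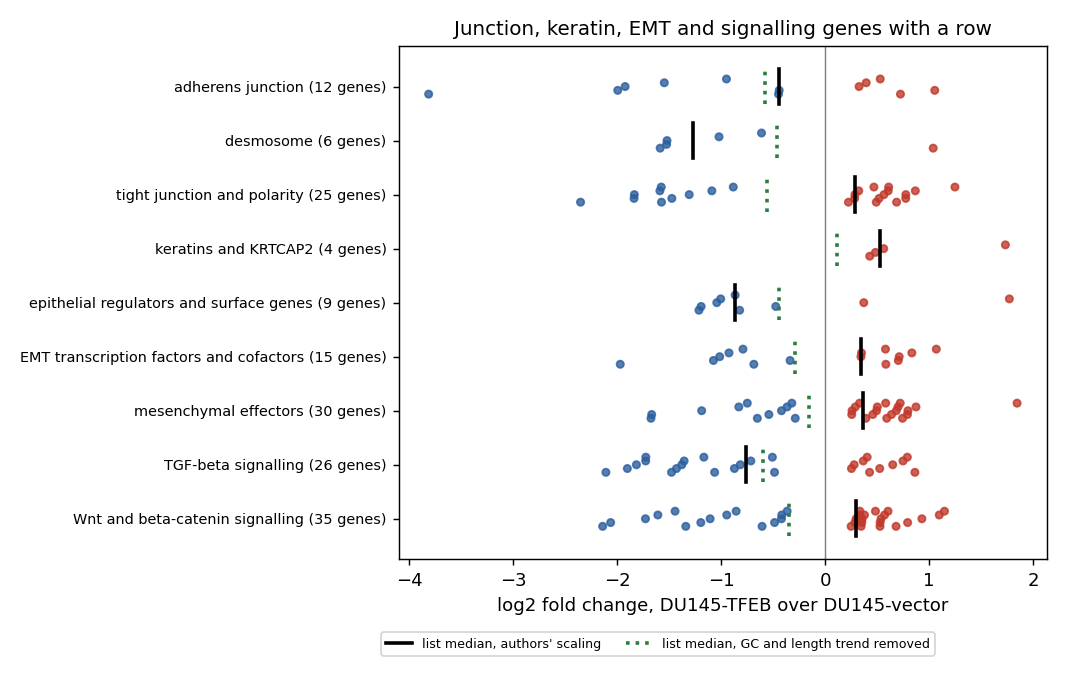
Log2 fold change (DU145-TFEB over DU145-vector) of each gene with a row in 9 gene lists, red where higher and blue where lower, with the list median for the authors' scaling (solid bar) and with the GC and length trend removed (dotted bar). The adherens junction, desmosome, epithelial regulator and TGF-beta medians lie below 0 on both, that of the keratins lies above 0 on both, and those of tight junction, EMT factor, mesenchymal and Wnt genes lie above 0 with the authors' scaling and below 0 with the trend removed.

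On the mesenchymal side, 15 of 28 EMT transcription factors and cofactors had a row. Of these 8 were higher and 7 lower, beside 47.6% and 52.4% of all listed genes. The counts with the trend removed were 2 higher, 10 lower and 3 not passing, beside 53.7% lower of all genes tested. TCF3, whose E12 and E47 products are E-box repressors of E-cadherin, rose from 2796 ± 102 to 4988 ± 203 normalized counts (log2 fold change 0.83), and its relative TCF12 fell from 1606 ± 108 to 418 ± 108 (-1.97). ETS1 was at -1.07. The chromatin cofactors HDAC1, at 0.58, and SMARCA4, at 0.71, were higher, and HDAC2, at -1.01, was lower. With the trend removed HDAC1 (0.53) and TCF12 (-1.07) kept their direction, with ETS1 at -0.41. TCF3 was then lower, at -0.15, and SMARCA4 at 0.09 and HDAC2 at 0.05 did not pass.

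Of 55 mesenchymal effectors such as matrix, cytoskeletal and integrin genes 30 had a row. Of these 19 were higher and 11 lower, beside 47.6% and 52.4% of all listed genes. As DEGs 1 was higher and 2 were lower, beside 2.54% and 16.5% of all listed genes. With the trend removed 4 were higher, 11 lower and 15 did not pass, beside 1649 higher and 5659 lower of all 10537 genes tested. The collagen VI chains COL6A1 (0.87) and COL6A2 (0.80) and the intermediate filament gene NES, nestin (0.79), rose, COL6A2 from 2565 ± 217 to 4448 ± 133 normalized counts. CALD1, caldesmon, fell from 3499 ± 285 to 1106 ± 204 (log2 fold change -1.67), the integrin chain ITGAV was at -1.67 and NT5E (CD73) at -1.19. Without the trend CALD1 was at -0.82, ITGAV at -0.61 and NT5E at -0.95, while COL6A2 was lower, at -0.31, and COL6A1 and NES did not pass. By the profile over the 6 libraries, CD44 and FSTL1 were among the 3 genes most like VIM of 152 candidates of these lists, at a root mean square distance of 0.078 and 0.088 in centred log2 units, with log2 fold changes of -0.65 and -0.75.

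Of 32 genes of TGF-beta signalling, a pathway known for inducing EMT, 26 had a row. Of these 10 were higher and 16 lower, beside 47.6% and 52.4% of all listed genes. Their median log2 fold change was -0.76, beside -0.36 over all listed genes. Receptors and a receptor-activated SMAD were among the 5 DEGs, all lower like 86.7% of all DEGs: BMPR2 at -1.81, TGFBR1 at -1.72, SMAD5 at -1.72, with the ubiquitin ligase SMURF2 at -1.90 and SKIL, a corepressor of SMADs, at -2.11. The latent TGF-beta binding proteins LTBP4 (0.86) and LTBP2 (0.79) were higher. TGIF1, another SMAD corepressor, rose from 1179 ± 76.5 to 1982 ± 106 normalized counts (log2 fold change 0.75) and was at 1.58 with the trend removed. In all, 19 of the 26 were lower and 2 higher with the trend removed, beside 53.7% lower of all genes tested, and the median was -0.60. The 5 DEGs shrank to between -0.96 (SMURF2) and -0.58 (SMAD5), LTBP4 was then lower, at -0.22, and LTBP2 at 0.24 did not pass.

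Of 47 genes of Wnt and beta-catenin signalling other than CTNNB1 35 had a row. Of these 20 were higher and 15 lower, beside 47.6% and 52.4% of all listed genes. This split turned with the trend removed, when 3 were higher, 21 lower and 11 did not pass, beside 53.7% lower of all genes tested. The coreceptor gene LRP5 rose from 3727 ± 302 to 8247 ± 267 normalized counts (log2 fold change 1.15), whereas LRP6, its paralog, was a DEG at -1.61. APC, a scaffold of the complex that destroys beta-catenin, fell from 808 ± 104 to 192 ± 70.7 (log2 fold change -2.14), the receptor FZD6 fell from 4133 ± 503 to 1003 ± 238 (-2.06) and the R-spondin receptor LGR4 was at -1.73. DVL2 (0.93), a transducer of the signal, and TLE2 (1.10), a corepressor, were higher. With the trend removed APC shrank to -1.23, FZD6 to -1.24, LGR4 to -1.05 and LRP6 to -0.65, none past the fold-change cutoff, and LRP5, DVL2 and TLE2 lay between -0.03 and 0.11 and did not pass.

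Markers of other cell types were checked beside these genes. Of 12 prostate luminal markers 4 had a row, with a summed level of 654, 588 and 768 normalized counts in DU145-TFEB and 544, 554 and 589 in DU145-vector. SLC45A3, the most abundant, was at a log2 fold change of 0.60 and STEAP2 at 1.24, and ACPP had 4.21, 3.64 and 8.31 normalized counts in DU145-TFEB and 0 in all 3 DU145-vector libraries, where a count of 0 allows up to 3 reads. Of 8 basal markers 3 had a row (LAMB3 at 0.57, NGFR at 0.86 and ITGA6 at -1.05), summing to 8700, 9563 and 8831 in DU145-TFEB and 7702, 6708 and 7990 in DU145-vector, with LAMB3 the most abundant. Of 10 neuroendocrine markers 3 had a row (ENO2 at 0.28, SYP at 1.14 and NCAM1 at 1.51), summing to 1533, 1508 and 1658 in DU145-TFEB and 1291, 1039 and 1341 in DU145-vector, with ENO2 the most abundant. Of 10 fibroblast and stromal markers 1 had a row, DES, desmin, which had 51.6, 34.6 and 46.7 in DU145-TFEB and 18.6, 8.78 and 9 in DU145-vector, and none of 8 leukocyte and 6 endothelial markers had one. The mean of each of these sums was higher in DU145-TFEB, in the direction opposite to the 6 identity genes, with overlapping groups for the luminal markers, and their part in the results was not tested. This direction did not hold for the most abundant markers with the trend removed, when LAMB3 (-0.34) and ENO2 (-0.44) were lower and SLC45A3 at -0.32 did not pass. NGFR, SYP and DES did not pass either, ITGA6 was at -0.44, and STEAP2 (2.39), ACPP (3.01) and NCAM1 (1.76) stood higher.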

How the data were processed

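A deposited table of poly(A) RNA-seq values, for 3 libraries of DU145-TFEB and 3 of DU145-vector, was analysed. The submitters' processing notes name CASAVA 1.8, HISAT2 2.1.0, edgeR and GRCh38. The counting program, annotation and strand setting are not given in the sources used here. The start, end and exon length of 10542 of 10542 genes equal GENCODE 29. The deposited signal values are reads that the authors divided by 1 size factor per library (0.950 to 1.10). Multiplying back gave whole reads for 100% of values in each library (tolerance 0.001), and the sixth column was already whole. The table also holds the authors' fold changes, p-values and adjusted p-values. The adjusted p-values were used only to test how the table was filtered (all were below 0.05).

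The main test was limma 3.58.1 (R 4.3.3) with a mean-variance trend on log2(value + 1) of the deposited values, in all 6 libraries, without a replicate block. No filter was applied. edgeR 4.0.16 and DESeq2 1.42.0 on the recovered reads, other scalings, pseudocounts of 0.5 and 5, a minimum of 10 reads, single libraries left out, a cutoff of 1 and removal by loess (span 0.5, per library) of the trend against GC content of the longest GENCODE 29 transcript and gene length were alternatives. The scripts were tested on simulated data. Single values were compared by exact two-sided permutation tests over libraries, whose smallest p is 0.1. The members were covered by at least 162 reads (ZEB1) in every library. No 2 libraries of a group agreed within sampling noise throughout (median chi-square per gene 1.01 to 4.88), and each was counted once.

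The identity genes, gene lists and markers were chosen with earlier results of these data known, and the lists are described by counts and medians only. From each list, up to 3 genes with the largest positive and negative fold change were named, provided that they averaged 100 normalized counts or more and had an adjusted p below 0.05 and groups that do not overlap. Every identity gene and marker with a row was named, except that some genes these rules pick are not reported here. DEGs outside this rule (CTNNA2, KRT86, CLDN1, DLG1, PARD6B, SMAD5, TGFBR1 and LRP6) were named after their values were seen. The genes nearest to VIM were those with the smallest root mean square distance of centred log2 profiles.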

Additional observations from a re-analysis of the deposited data

How the results depend on the processing

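KRT8, KRT18, VIM and ZEB1 were lower at an adjusted p below 0.05 under all 18 alternatives each. The listed genes had been selected for a deposited adjusted p below 0.05 in these same libraries, so a kept call is not independent evidence. With the GC and length trend removed, 69.4% of all genes tested passed. KRT19 lost its call with upper quartile scaling (-0.20, adjusted p = 0.128), with DESeq2 size factors (-0.14, 0.299), in DESeq2 (-0.14, 0.316) and without DU145-TFEB replicate 1 (-0.31, 0.0524), where 2 of the 3 keratins remained called, and 4 epithelial genes were lower with CTNNB1 counted among them. CTNNB1 lost its call with DESeq2 size factors (-0.10, 0.163) and in DESeq2 (-0.10, 0.255), and was reversed at 0.28 with the GC and length trend removed (adjusted p = 0.00682, and 0.00798 with the replicate block). The same correction, with and without the replicate block, turned the medians of the tight junction (-0.56), EMT factor (-0.29), mesenchymal effector (-0.16) and Wnt (-0.34) lists, left 600 DEGs in place of 2009, and put 1 identity gene, KRT18, past the cutoff in place of 0. Without a block, it also turned the KRT19 to KRT8 log2 ratio (-0.035). That ratio in every setting, and each ratio with the trend removed, was chosen after seeing the data. A cutoff of 1 gave 4161 DEGs and 1 identity gene, ZEB1. Leaving out single libraries gave between 1584 DEGs, when DU145-TFEB replicate 2 was left out, and 2316, when it was DU145-TFEB replicate 3, and 0 to 1 identity genes past the cutoff, and moved ZEB1 from -1.66 to -1.22, KRT8 from -0.83 to -0.58 and KRT18 from -0.95 to -0.69. Without DU145-TFEB replicate 3 the KRT18 to VIM log2 ratio differed by 0.066, the reverse direction.

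Of the 2009 DEGs 86.7% were lower, against 76.3% with upper quartile scaling, 70.3% with DESeq2 size factors, 69.0% in DESeq2, 58.9% with quantile normalization and 74.8% with the trend removed. These scalings moved the median of all listed genes from -0.36 to -0.18, -0.12 and -0.03 (quantile normalization, under which KRT8 was at -1.04, KRT18 at -0.91, KRT19 at -0.27, VIM at -0.83, ZEB1 at -0.97 and CTNNB1 at -0.38). Libraries of the same replicate number did not deviate together (correlations -0.06, -0.42 and -0.35 over 8617 genes), and no library correlated best with its own number. With the replicate block there were 2011 DEGs and no identity gene changed its call.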
